A study of Mus musculus with 4 samples.

Results

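The mRNAs described here are those of 35 genes of microglia and of cytokine signaling, measured in the brain of newborn mice whose dams had received titanium dioxide nanoparticles (TiO2-NP) during pregnancy. The 35 genes are a named set, and 34 of them had a probe under a RefSeq accession of the gene table used, among 20660 such genes on the array. The exception was Cd68, a lysosomal glycoprotein of macrophages, which is not analysed here. Sfpi1, as the set names it, is listed as Spi1 in the gene table and encodes the transcription factor PU.1. Where a gene had several probes, the one with the highest mean log2 signal over the arrays stood for it.

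The study compared offspring of dams that received TiO2-NP with offspring of dams that received the particle-free vehicle, to find changes in brain mRNA after prenatal exposure. The mice were C57BL/6 (by the methods C57BL/6J), the tissue was whole brain at postnatal day 1, and the treatment was given to the dam by intratracheal instillation on gestational day 10.5 (the sample titles give day 14). Sham dams received 25 μL of the vehicle, which had been prepared from the suspension by removing the particles, and TiO2-H dams received the same volume with particles at 4 μg/μL (per liter, as the labels have it), or 100 μg per mouse. RNA of 2 offspring per dam was pooled, each pool was hybridized to 1 array, and a pool drew on 5 dams (Sham) or 6 dams (TiO2-H). Male and female offspring were pooled apart within each exposure, which gave 4 groups with 1 array each and no replicate within a group. Within a sex label no test was therefore possible, and the fold changes given for it compare 2 pools.

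Several facts of the arrays touch all results. The sex-linked mRNAs went against the sex labels of the TiO2-H arrays. The signal of Eif2s3y, a gene of the Y chromosome, was 3519 for Sham male and 419 for Sham female, but 6.40 under the label TiO2-H male and 4345 under the label TiO2-H female. Signals of Xist, an RNA of female cells, were 17.9 and 276 for Sham male and female. They were 347 and 5.36 under the labels TiO2-H male and TiO2-H female. On the Sham female array Eif2s3y was also well above background. A comparison within a label may thus set pools of different sex against each other, where sex and exposure cannot be told apart. The male and female comparisons are therefore given by label only, with the values of all 4 arrays. The 4 arrays lay on 1 slide, with the Sham arrays in one row and the TiO2-H arrays in the other, so that row and exposure cannot be told apart. Slightly more spots were well above background in TiO2-H (59.4% to 61.2%) than in Sham (56.2% to 56.9%).

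Microglia are the resident macrophages of the brain. They derive from yolk sac progenitors that enter the brain early in gestation, depend on signaling through the receptor encoded by Csf1r, and at birth they still carry an ameboid, phagocytic form. They clear dying cells and synapses with the help of complement, and on stimulation they can release cytokines and chemokines. In whole brain RNA, fewer microglia and less RNA per microglial cell cannot be told apart.

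Of the 34 genes with a probe, 25 were well above background on all 4 arrays, 2 on 3 arrays and 7 on none. By array, 27 were detected for Sham male, 26 for Sham female, 26 for TiO2-H male and 27 for TiO2-H female. The 7 genes not detected on any array were Sfpi1, the receptor genes Tlr4 and Cd163, and the cytokine genes Il1b, Il6, Il10 and Ccl4, with processed signals between 5.30 and 24.0. Ptprc, which encodes the leukocyte phosphatase CD45, fell short of detection for Sham female, and Cxcl10 did so on the array labelled TiO2-H male. The defining microglia mRNAs Aif1, Cx3cr1, Csf1r, Tmem119 and P2ry12 were well above background on every array, so that the cell type of the set was present in the measured tissue, while the probe of the lineage factor Sfpi1 gave no signal above background.

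Below, the level of a gene is its processed signal in percent of the 75th percentile of all signals on the same array, which was 810 for Sham male, 795 for Sham female, 867 for TiO2-H male and 871 for TiO2-H female. Levels are given in that order of arrays. A gene was called higher at 1.5-fold or more and lower at 0.67-fold or less, the thresholds of the study. Of the 27 genes compared between the arrays labelled male, 2 were higher in TiO2-H (Spp1 and Cd38) and 1 was lower (Cxcl10), where 2.06% and 1.83% of 15591 RefSeq-named genes were. Between the arrays labelled female, 0 of 27 were higher and 4 were lower (Lyz2, Ccl2, Cxcl10 and Spp1), where 1.59% and 1.97% of 15770 genes were. The remaining genes differed by at most 0.27 on the log2 scale in either direction under the male label and at most 0.55 under the female label.

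**Figure D1:**
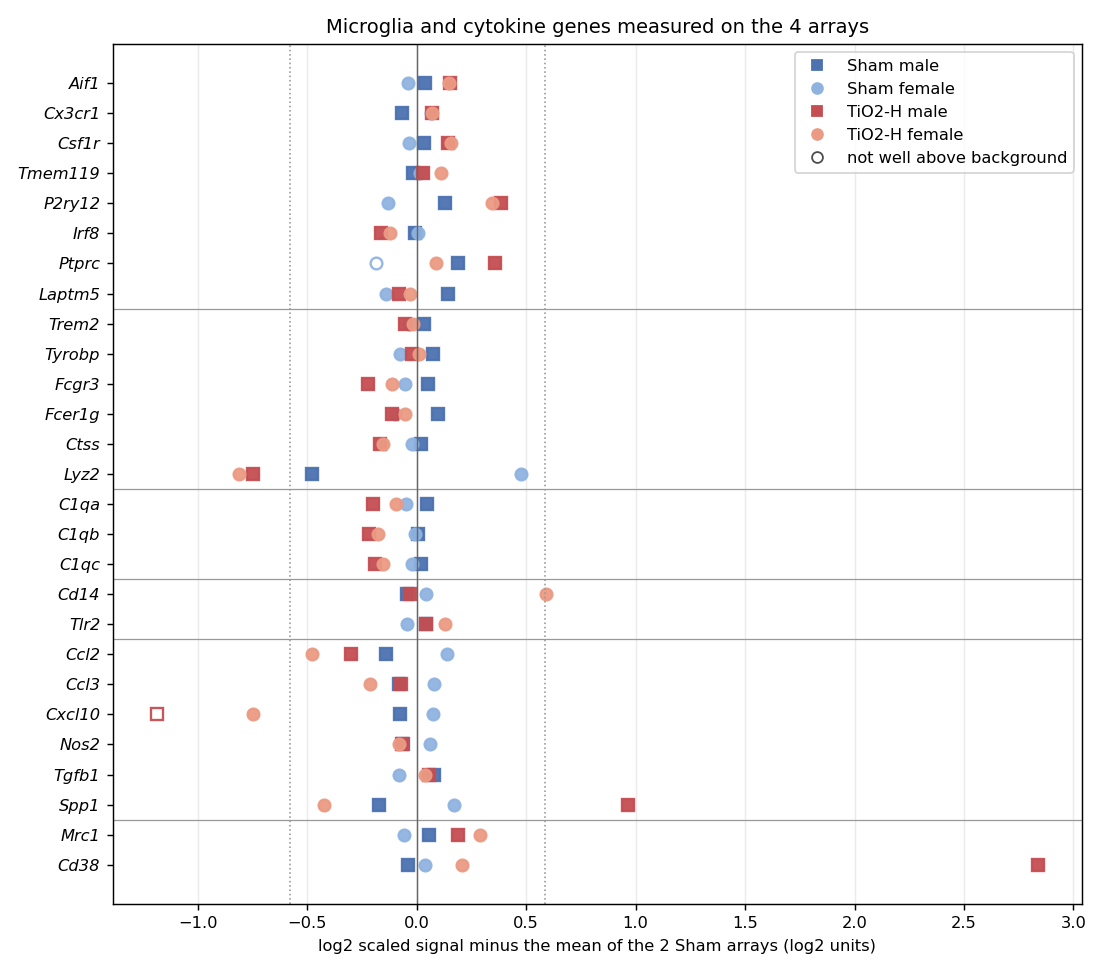
Each point is the log2 level of a gene on an array minus the mean of the Sham arrays (log2 units, horizontal axis), for the 27 genes well above background on at least 1 array, ordered by role and separated by lines. Dotted lines mark 1.5-fold and 0.67-fold of that mean (calls were made against the Sham array of the same label), and open symbols stand for arrays where the gene was not well above background and was set to the lowest detectable level. Most genes lie between the dotted lines on all 4 arrays, while Cd38 lies 2.87 log2 units above its Sham array on the array labelled TiO2-H male.

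The exposures can also be set against each other over both labels, with 2 arrays each. Both TiO2-H arrays lay above both Sham arrays for 7 of the 27 genes and below for 10, and the groups overlapped for the other 10. Over 16150 RefSeq-named genes the same shares were 28.5% above and 27.1% below, 55.6% in all, so that a lack of overlap was common on these arrays. In limma, 0 of the 27 genes passed an adjusted p of 0.05, as did 0 of all 26210 identifiers tested, and the lowest adjusted p among the 27 was 0.327. Without adjustment, 9 of the 27 genes had a p under 0.05, beside 14.1% of RefSeq-named genes. An exact permutation test of 2 against 2 arrays cannot give a two-sided p below 0.333. The median log2 difference of the 27 genes was -0.02 under the male label and 0.02 under the female label, beside 0.0026 and 0.012 for all RefSeq-named genes.

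Beside the counts of each role group stand the shares over RefSeq-named genes, 28.5% above and 27.1% below without overlap. The genes of microglia identity and its transcription factors were compared first. Of the 8 detected, 5 were above on both TiO2-H arrays (Aif1, Cx3cr1, Csf1r, Tmem119 and P2ry12) and 1 was below (Irf8). Their median log2 difference was 0.11 under the male label and 0.15 under the female label, and 0 passed a fold threshold. These medians are smaller than the scanner error of a gene, which was at least 0.20. P2ry12 encodes the ADP receptor by which microglia extend their processes. Its levels were 17.4%, 14.5%, 20.7% and 20.2%. Both TiO2-H arrays lay above both Sham arrays, by a log2 difference of 0.36 ± 0.11 (SE of limma, 2 arrays against 2, adjusted p = 0.332).

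Csf1r encodes the receptor for the growth factors CSF1 and IL-34, on which microglia depend. Its levels were 837.9%, 799.9%, 904.2% and 913.2%, without overlap (log2 difference 0.15 ± 0.05, adjusted p = 0.334 in limma). The other probes of Csf1r gave log2 differences of -0.07 and -0.03, and of -0.08 and 0.10, under the male and female labels, so that the probes disagreed. Over the mean of its probes the groups overlapped and the difference was 0.04.

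The calcium-binding protein gene Aif1 (Iba1), a common stain for microglia, had levels of 130.2%, 123.2%, 140.9% and 140.6%. It did not overlap either (0.15 ± 0.05, adjusted p = 0.338 in limma). Cx3cr1 encodes the receptor for the neuronal ligand fractalkine, and its levels of 195.8%, 214.3%, 215.2% and 215.1% left a log2 difference of 0.01 under the female label, far inside the scanner error of 0.20. Tmem119, a membrane protein that sets microglia apart from other macrophages, had levels of 35.4%, 36.2%, 36.5% and 38.7%.

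Irf8, a transcription factor of the myeloid lineage, was the member of this group that lay below, with levels of 49.1%, 49.5%, 44.0% and 45.3%. Its log2 difference was -0.14 ± 0.04 (adjusted p = 0.329 in limma). Ptprc and Laptm5, a lysosomal protein of blood cells, overlapped between the exposures. Without any scaling of the arrays Irf8 overlapped too, and after quantile normalization Cx3cr1 and Tmem119 did. With normexp Cx3cr1, P2ry12 and Tmem119 overlapped, and the log2 difference of Tmem119 turned to -0.06.

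The phagocytic receptor and lysosome genes were compared next. Of the 6 detected, 0 were above and 3 below on both TiO2-H arrays (Fcgr3, Ctss and Lyz2), with median log2 differences of -0.20 under the male label and -0.02 under the female label. Trem2, a lipid receptor, and Tyrobp, the adaptor through which it signals, overlapped. Levels of Trem2 were 177.6%, 169.7%, 167.5% and 171.6%, and those of Tyrobp were 257.8%, 232.7%, 241.3% and 247.1%. In both genes the Sham and TiO2-H levels interleaved or nested. Fcer1g, the common chain of Fc receptors, overlapped as well.

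Ctss encodes the lysosomal protease cathepsin S. It had levels of 258.8%, 251.4%, 227.0% and 229.2%, a small gap that spanned both labels (-0.16 ± 0.04, adjusted p = 0.327 in limma). Fcgr3, an Fc receptor for immunoglobulin G, had levels of 30.8%, 28.7%, 25.5% and 27.5%, and its groups overlapped without scaling of the arrays.

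Lyz2 encodes the lysozyme of macrophages and neutrophils and has a close paralog, Lyz1, whose RNA its probe may share. Its levels were 14.7%, 28.4%, 12.2% and 11.6%. The Sham female array stood 1.93-fold from the nearest other array, and the other 3 arrays lay close together. The call under the female label, 2.44-fold lower in TiO2-H (log2 -1.29), rests on that array, and under the male label the log2 difference was -0.27. The Sham arrays alone differed by 0.95 log2 units for Lyz2, the only one of the 27 genes to pass a threshold between them (3.58% of RefSeq-named genes did). In limma the difference was -0.78 ± 0.38 (adjusted p = 0.413), and without the Sham female array it was -0.30.

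C1q starts the classical complement cascade and tags synapses for removal by microglia, and its chains are encoded side by side by C1qa, C1qb and C1qc. All 3 genes were slightly lower on both TiO2-H arrays than on both Sham arrays. C1qb had levels of 155.2%, 154.0%, 133.1% and 136.6% (log2 difference -0.20 ± 0.04, adjusted p = 0.327 in limma). C1qc had levels of 229.8%, 223.4%, 198.7% and 203.6% (-0.17 ± 0.04, adjusted p = 0.327), and C1qa 139.9%, 131.1%, 117.8% and 126.9% (-0.15 ± 0.07, adjusted p = 0.399).

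The probe of C1qc was spotted 10 times on each array, and its log2 difference was -0.21 ± 0.02 under the male label and -0.13 ± 0.03 under the female label (SE over spots, which covers the error within an array only). No C1q gene passed a fold threshold. C1qb and C1qc stayed below under all 4 scalings tried, and C1qa overlapped without scaling.

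The stretches before the start of these genes are shown because C1qb and C1qc lay below on the same arrays. They are 250 bases, 5′ to 3′ on the strand of the gene, from RefSeq on GRCm38.p6, with each match to GAGGAA in capitals. That is a core bound by PU.1-like factors, searched on both strands, so that a match on the other strand reads TTCCTC. The window of C1qb is chr4:136886201-136886450 and that of C1qc chr4:136892915-136893164, both on the minus strand.
C1qb: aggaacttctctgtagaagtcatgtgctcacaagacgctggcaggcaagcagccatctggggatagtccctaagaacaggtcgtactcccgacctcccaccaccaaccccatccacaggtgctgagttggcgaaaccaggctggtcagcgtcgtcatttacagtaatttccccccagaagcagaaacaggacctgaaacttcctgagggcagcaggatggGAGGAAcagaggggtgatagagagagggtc
C1qc: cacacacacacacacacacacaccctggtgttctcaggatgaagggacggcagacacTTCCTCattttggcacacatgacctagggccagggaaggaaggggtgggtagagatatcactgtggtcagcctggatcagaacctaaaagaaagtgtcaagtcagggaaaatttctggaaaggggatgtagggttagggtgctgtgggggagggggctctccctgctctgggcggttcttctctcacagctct
The match of C1qb begins 30 bases before the start and that of C1qc 193 bases before it. Promoters of 24 of the 35 genes were in the table, in 28 windows. GAGGAA was found in 13 of these windows (46.4%), and in 23.3% of all 32851 windows of the same length. The 13 windows belong to 12 of the 24 genes, since overlapping windows of Fcgr3 share a match. The second motif searched, GGGA and TTCC with any 2 bases between them, is a form bound by NF-kappaB, can share the letters GGAA with the first, and was found in 3 windows (10.7%), those of Cxcl10, Il6 and P2ry12, beside 1.21% of all windows. A match is a run of letters and does not show binding.

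Among the pattern recognition genes, Tlr4 was not detected, and the others overlapped. Cd14, the coreceptor for bacterial lipopolysaccharide, had levels of 9.46%, 10.03%, 9.53% and 14.7%. The array labelled TiO2-H female stood apart, 1.46-fold above its Sham array and under the threshold (log2 0.55). Cd14 differed between the TiO2-H arrays by 0.62 log2 units, and was 1 of 3 of the 27 genes past a threshold there, with Spp1 and Cd38 (3.6% of RefSeq-named genes). Tlr2, a receptor for bacterial lipoproteins, had levels of 11.3%, 10.6%, 11.3% and 12.0%.

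Of the 10 cytokine, chemokine and effector genes, 6 were detected, 0 lay above and 3 below on both TiO2-H arrays (Ccl2, Cxcl10 and Nos2). Il1b, Il6, Il10 and Ccl4 were not well above background on any array. Signals of Il1b, a central inflammatory cytokine, were 7.60, 8.04, 11.7 and 5.81, and those of Il6 were 7.34, 7.65, 6.96 and 5.55. Signals of Il10, which restrains inflammation, were 10.4, 13.5, 18.6 and 15.3, and those of the chemokine Ccl4 were 8.44, 8.85, 8.79 and 14.8. All lay under the lowest signal well above background, which was 30.4, 31.7, 29.5 and 23.3 on the same arrays, so that a change of these mRNAs was not detectable.

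Cxcl10 was the only gene of the set called lower under both labels (18 of 15208 RefSeq-named genes, or 0.118%, were). It encodes a chemokine induced by interferon that draws T cells. Its signals were 59.4, 64.8, 24.9 and 40.1, of which the third was not well above background. The levels were 7.33% and 8.15% in Sham and 4.61% on the array labelled TiO2-H female, with 3.40% as the lowest detectable level on the array labelled TiO2-H male. Both TiO2-H arrays lay below both Sham arrays. By the lowest detectable level of the array labelled TiO2-H male, the difference was at least 2.16-fold lower under the male label (log2 -1.11). With 1 such level used for all arrays, this bound was weaker (log2 -0.88). Under the female label the difference was 1.77-fold lower (log2 -0.82 with a scanner error of 0.36). In limma it was -0.97 ± 0.19 with an adjusted p of 0.327. All 4 signals were near background, and with a background correction by normexp the log2 difference shrank to -0.42 and passed no threshold under either label.

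The stretch before the start of Cxcl10 is chr5:92348890-92349139 on the minus strand. Its match to the form of the NF-kappaB motif that was searched is in capitals and begins 159 bases before the start. Other forms of the motif were not searched and are not marked.
Cxcl10: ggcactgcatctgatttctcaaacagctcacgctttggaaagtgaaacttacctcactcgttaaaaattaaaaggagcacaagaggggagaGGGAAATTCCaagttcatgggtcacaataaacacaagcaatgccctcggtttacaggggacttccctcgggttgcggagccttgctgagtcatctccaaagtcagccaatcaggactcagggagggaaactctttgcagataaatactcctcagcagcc
The match is a description of letters, and binding of the factor was not measured here.

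Ccl2, which draws monocytes, was lower in TiO2-H under the female label. Its probe was spotted 10 times, and its levels were 15.8%, 19.1%, 14.1% and 12.5%. Both TiO2-H arrays lay below both Sham arrays, but the gap between the exposures was smaller than that between the Sham arrays. The log2 difference was -0.16 ± 0.06 under the male label and -0.62 ± 0.06 under the female label (SE over spots), and the Sham arrays differed by 0.28 ± 0.06. The second of these is 1.53-fold lower, just past the threshold, which 280 of 15770 RefSeq-named genes passed as far or farther in that direction. In limma the difference was -0.39 ± 0.13 (adjusted p = 0.346). The difference under the female label was not called with normexp (-0.43) or without scaling (-0.49). With the arrays paired across the sex labels Ccl2 was not called either (-0.34 against Sham male and -0.44 against Sham female).

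**Figure D2:**
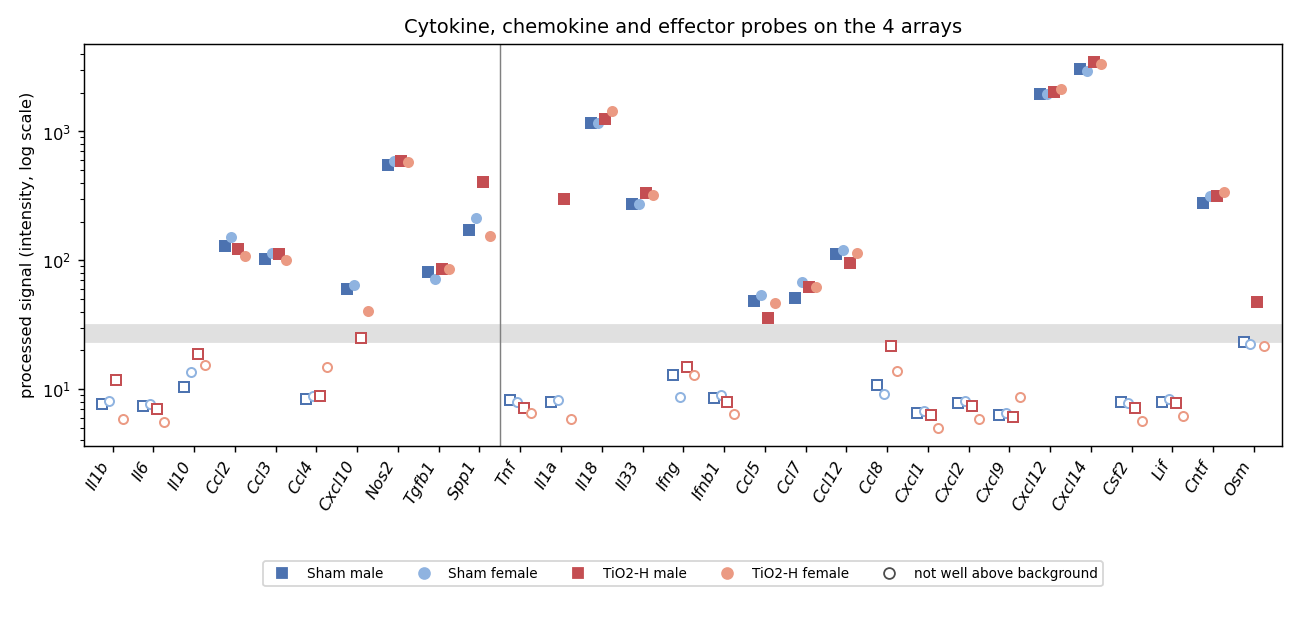
Processed signal (intensity, log scale, vertical axis) of the cytokine, chemokine and effector genes of the set, left of the line, and of other cytokines and chemokines, right of it, on each of the 4 arrays. Open symbols were not well above background, and the gray band spans the lowest signals well above background, 23.3 to 31.7. Il1b, Il6, Il10 and Ccl4 lie under the band on all arrays, and Il1a rises above it on the array labelled TiO2-H male alone.

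Spp1 (osteopontin), a secreted phosphoprotein that marks phagocytic microglia of early postnatal white matter, moved in opposite directions under the 2 labels. Its levels were 21.2%, 26.9%, 46.7% and 17.8%. The array labelled TiO2-H male was the highest and the array labelled TiO2-H female the lowest of the 4. Under the male label Spp1 was 2.20-fold higher (log2 1.14 with a scanner error of 0.22), and under the female label 1.51-fold lower (log2 -0.59, scanner error 0.22). Over both labels the difference was 0.27 ± 0.56 in limma (adjusted p = 0.816). The call under the female label lay just past the threshold and was lost without scaling (-0.46), after quantile normalization (-0.57) and with normexp (-0.40). Opposite calls were made for 0.125% of 15208 RefSeq-named genes.

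Ccl3, Nos2 and Tgfb1 moved less. Ccl3, a chemokine, had levels of 12.7%, 14.2%, 12.8% and 11.6%, and Tgfb1, the growth factor that maintains microglia identity, had 10.01%, 8.94%, 9.85% and 9.71%. The exposures overlapped for both. Nos2, the inducible nitric oxide synthase, had levels of 67.6%, 73.8%, 67.5% and 66.8%. Its TiO2-H arrays lay below both Sham arrays, though the array labelled TiO2-H male all but met the Sham male array, and without scaling its log2 difference turned from -0.07 to 0.04.

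Mrc1 encodes the mannose receptor, which in brain is carried by macrophages of the meninges and vessels more than by microglia. It lay above on both TiO2-H arrays, with levels of 62.2%, 57.5%, 68.1% and 73.0% (0.24 ± 0.07, adjusted p = 0.329 in limma), but overlapped with normexp. Cd163, a scavenger receptor of the same macrophages, was not detected, with signals of 6.72, 7.14, 6.75 and 5.30.

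Cd38 encodes an ectoenzyme that breaks down NAD and is found on immune cells, astrocytes and neurons, and had the largest log2 difference of the set. Its processed signals were 93.9, 97.2, 737.2 and 119.5, and its levels 11.6%, 12.2%, 85.0% and 13.7%. The array labelled TiO2-H male stood 6.19-fold above the nearest other array, and the other 3 lay close together. Under the male label Cd38 was 7.34-fold higher (log2 2.87), as far as or farther than which lay 14 of 15591 RefSeq-named genes, itself included. Under the female label the log2 difference was 0.17. The value rests on 1 spot of 1 array, and over both labels limma gave 1.52 ± 1.03 (adjusted p = 0.507), or 0.21 without the array labelled TiO2-H male.

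The stretches before the start of the genes with the largest increases under the male label are given for comparison. The window of Cd38 is chr5:43868559-43868808 and that of Spp1 chr5:104434861-104435110, both on the plus strand, with GAGGAA in capitals.
Cd38: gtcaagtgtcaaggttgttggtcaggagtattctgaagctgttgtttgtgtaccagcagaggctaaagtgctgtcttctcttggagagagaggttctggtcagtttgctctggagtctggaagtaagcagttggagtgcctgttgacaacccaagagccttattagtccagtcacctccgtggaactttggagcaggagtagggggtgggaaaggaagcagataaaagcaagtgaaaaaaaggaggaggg
Spp1: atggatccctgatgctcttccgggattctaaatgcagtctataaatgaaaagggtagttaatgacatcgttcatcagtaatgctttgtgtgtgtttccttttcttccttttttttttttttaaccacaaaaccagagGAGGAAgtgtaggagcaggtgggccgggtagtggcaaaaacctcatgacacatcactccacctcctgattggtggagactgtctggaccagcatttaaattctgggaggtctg
The window of Cd38 held neither motif. That of Spp1 held GAGGAA, beginning 113 bases before the start, and a second window of Spp1 in the table held none.

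**Figure D3:**
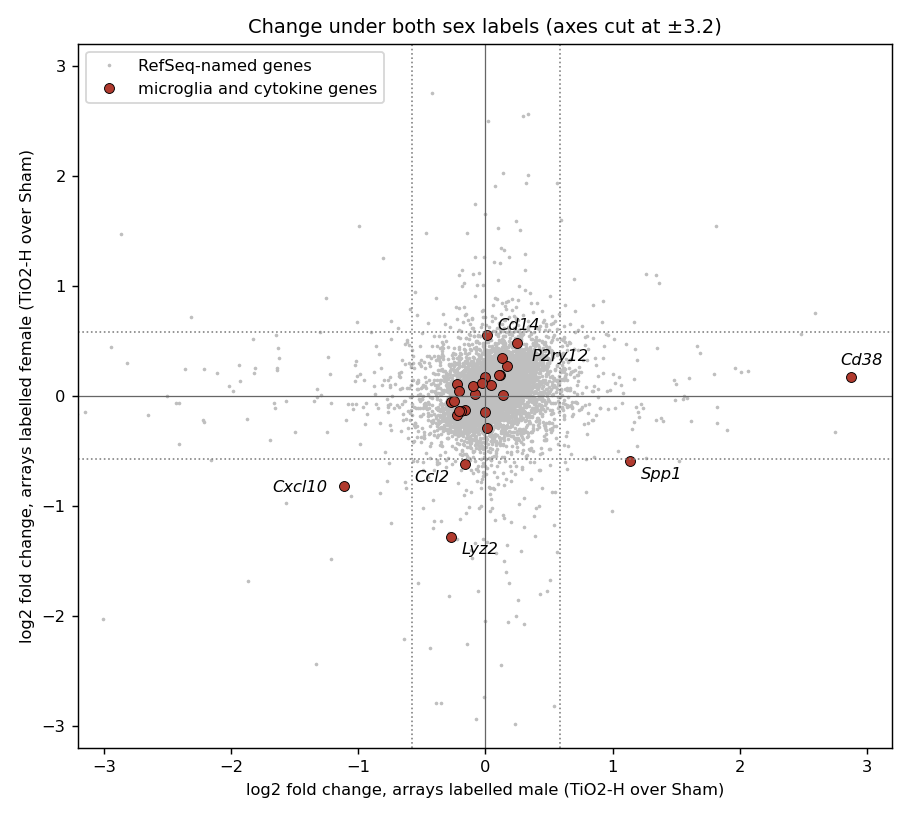
Log2 fold change of TiO2-H over Sham on the arrays labelled male (horizontal axis) and female (vertical axis), with RefSeq-named genes in gray and the 27 detected genes of the set in red. Both axes are drawn to ±3.2, so that genes beyond it are not seen, and dotted lines mark the thresholds of 1.5-fold and 0.67-fold. Cxcl10 is past the lower threshold on both axes, Spp1 is past opposite thresholds, and most other genes of the set lie within the gray cloud.

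Related genes that are not members give the setting of these values. The counts of these lists and of the marker lists stand beside shares over RefSeq-named genes. Those shares were 28.5% above and 27.1% below without overlap. Under the male label 2.06% were called higher and 1.83% lower, and under the female label 1.59% and 1.97%. Of 27 other microglia genes detected, 0 passed a threshold under either label, 9 lay above without overlap and 7 below. Itgam, a subunit of complement receptor 3 that binds tagged synapses, was among the 9. Its log2 differences were 0.21 and 0.22 under the male and female labels. Itgb2, which encodes the other subunit of that receptor, was among the 7 below, with -0.18 and -0.20. The probes of these subunits differed far in brightness. Signals were 20474, 21977, 25352 and 27953 for Itgam and 115, 105, 109 and 101 for Itgb2. Whether the Itgam probe reads other RNA was not tested. The growth factor genes Csf1 and Il34, the ligands of the Csf1r receptor, had -0.07 and -0.09, and -0.06 and -0.04. They were the 2 below without overlap among the 8 growth factor and ligand genes, while 3 lay above (Cd200, Tgfb2 and Mfge8). Of the 8, 0 passed a threshold.

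Of 19 other cytokine and chemokine genes with a probe, 10 were well above background on at least 1 array, and 1 passed a threshold. Tnf was not detected, with signals of 8.18, 7.91, 7.19 and 6.58. Il1a, a cytokine released by damaged and activated cells, was detected on the array labelled TiO2-H male alone, with signals of 7.94, 8.23, 301 and 5.85. That is at least 9.25-fold higher under the male label, a value that rests on 1 array. Over both labels limma gave 1.32 ± 1.45 for Il1a (adjusted p = 0.663). Cd38 and Spp1 were high on the same array, and a link between these genes was not tested. In this list 2 genes lay above without overlap and 2 below. Those above were Il33 (0.17 and 0.10 under the male and female labels) and Cxcl14 (0.08 and 0.07). The chemokines Ccl5 and Ccl12 lay below, by -0.53 and -0.32 and by -0.34 and -0.21, short of the threshold.

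Of the innate signaling genes, 18 of 22 were detected. They held 1 call, Tlr1 under the male label (-0.96, with a TiO2-H signal not well above background), and 3 lay above and 9 below without overlap. Nfkbia, the inhibitor of NF-kappaB that the factor itself induces, had -0.14 under both labels. Among 14 other complement genes, Itgax was called higher under the male label (0.78), and C5ar1 and Cfd lower under the female label (-1.16 and -0.81), each with signals not well above background on 2 or 3 arrays. Of 8 detected genes of NAD turnover, Enpp1 was called higher under the female label (0.60), with 0 calls under the male label. Its signals were 36.5, 26.6, 49.3 and 52.6, of which the Sham female signal was not well above background.

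Markers of other cells that share these mRNAs were measured beside them. Of 7 border macrophage genes, all were detected, 2 lay above without overlap (Ms4a7 and Stab1, as did Mrc1) and 0 below. Lyve1 was called lower under the male label (-0.67) and Cd209f lower under the female label (-0.84). The summed level of the list was 6.47, 5.75, 6.16 and 6.36 in units of the 75th percentile. Of 8 neutrophil and monocyte genes with a probe, 7 were detected and 0 passed a threshold, and Ccr2, which defines monocytes, was not detected. The summed levels of 3.02, 3.32, 3.27 and 3.47 came mostly from the probe of Elane. Its signals were 1698, 1802, 1999 and 1945, while those of Mpo were 33.3, 18.1, 38.4 and 23.8. Of 8 lymphocyte genes 4 were detected and 0 passed a threshold, and Cd3e was among the 4 while Cd3d and Cd3g were not.

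Red blood cell mRNAs lay in the direction of the C1q genes and of Lyz2. Of 6 detected erythroid genes, 5 lay below without overlap, beside 27.1% of RefSeq-named genes. The medians of the erythroid log2 differences were -0.27 under the male label and -0.19 under the female label. Summed levels of the erythroid genes were 305, 285, 256 and 262. Their part in the lower values of blood-borne or macrophage mRNAs was not tested. Oligodendrocyte lineage genes lay above without overlap for 4 of 7 and below for 0, and neuronal genes for 2 and 1 of 6.

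**Figure D4:**
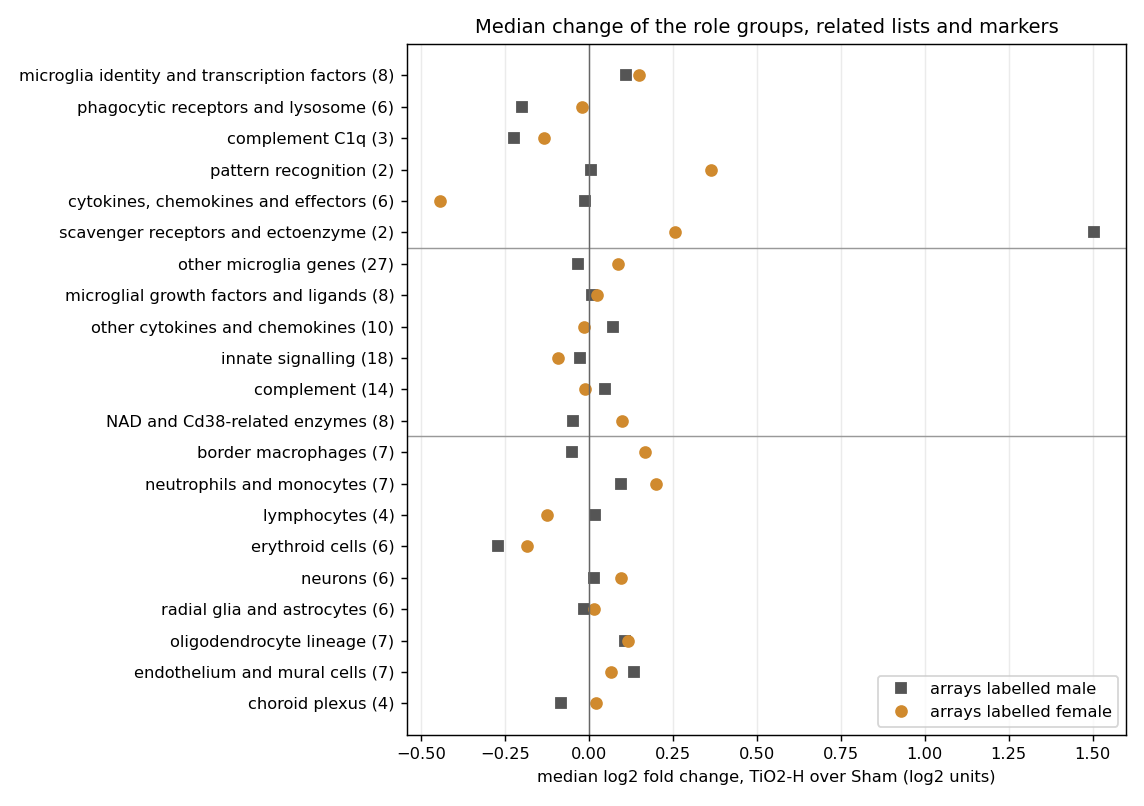
Median log2 fold change of TiO2-H over Sham (log2 units, horizontal axis) of the role groups of the set, of related lists and of the marker lists of other cells (sex-linked genes not drawn), with the number of detected genes in brackets. Squares are the arrays labelled male and circles the arrays labelled female. The role groups of 2 to 6 genes spread most widely, from -0.44 to 1.504, and the medians of the related and marker lists lie between -0.27 and 0.20.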

How the data were processed

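Brain RNA pools of 4 groups were measured on 4 one-color Agilent arrays (SurePrint G3 Mouse GE), 1 per group. The authors deposited the scanner output, made with Feature Extraction 10.10.1.1, whose processed signal is a background-subtracted intensity with no scaling between arrays. The value table the authors deposited holds the same intensity for all 59305 spots that are not controls.

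From the processed signal, the log2 value minus the log2 of the 75th percentile of each array was computed. Outlier spots were left out and spots of a probe averaged. Genes were named by RefSeq accession through a table of GRCm38.p6, which held 98.0% of the NM and NR accessions. The table is of another build than the array, so gene positions are not given, and the promoter windows are those of RefSeq on GRCm38.p6. Only genes detected (well above background) on 1 or more of the arrays in a comparison entered it. A spot not detected was raised to the dimmest detected signal of its array unless it was brighter, so that its fold change is a bound. Calls were made at 0.67-fold and 1.5-fold. The scanner error is that of the processed signal, as the software estimates it. The TiO2-H and Sham arrays (2 against 2) were compared with limma 3.58.1 in R 4.3.3 over 26210 identifiers, with Benjamini-Hochberg adjustment and without sex as a term. Nothing in the sources shows that the pools of a group were repeated, so p-values measure the spread between pools of different sex labels. The number of arrays limits the precision. Python 3.11.15 with numpy 2.4.6 and pandas 2.3.3 served for the rest, and the fits were tested on simulated data.

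The genes of the set, the related lists and the marker lists were chosen with earlier results of these data known. All 35 genes were accounted for. Signals are given for those called, those without overlap and the main genes of each role, and of other lists the counts with a few genes of closely related function. The alternatives were no scaling, quantile normalization, normexp with an offset of 50 on median signals (the files hold no mean signal), the deposited value table, no filter on dim probes, a filter on all 4 arrays, no floor, the mean of the probes of a gene, outlier spots kept, a threshold of 2-fold, each TiO2-H array set against the Sham array of the other sex label, sex as a term, and each array left out in turn. The use of 1 floor for all arrays and of the whole promoter window was chosen after seeing the data.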

Additional observations from a re-analysis of the deposited data

Results flagged for a closer look

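Spp1 was called in opposite directions under the sex labels. Its log2 fold change was 1.14 between the arrays labelled male and -0.59 between the arrays labelled female, with 1 array per group. The second value lay just past the threshold of 0.67-fold and was no longer called without scaling (-0.46), after quantile normalization (-0.57) or with normexp (-0.40). The difference between the labels was not tested, and the sex-linked mRNAs went against the labels of the TiO2-H arrays.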

How the results depend on the processing

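Each group held 1 array and the labels give no replicate numbers, so that the sex label was the only pairing available. It was used as a term in limma, as labelled and with the TiO2-H labels exchanged. Over all alternatives, 896 of 966 fold changes of single genes stayed within their error, 68 moved by more and 2 reversed. That error was the scanner error within a label, at least 0.20, and the SE of limma over both labels. The deposited value table and the filters on dim probes could not change a fold change, so the share kept was partly fixed in advance. Only values past a fold threshold could count as reversed, so the changes of sign of Nos2 and Tmem119 are not among the 2. Of 204 counts, medians and shares 176 were kept and 28 moved. The reversed values were those of Spp1 with the arrays paired across the sex labels, -0.25 for the Sham male array and 0.79 for the Sham female array. In that pairing 1 gene was higher and 1 lower against Sham male, and 2 were higher and 2 lower against Sham female.

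Without scaling of the arrays the median log2 difference was 0.075 under the male label, 0.15 under the female label and 0.080 over both. This setting shifts every gene by 0.10 under the male label and 0.13 under the female label. Then 2 genes were higher and 2 lower under the female label in place of 0 and 4, and 13 lay above and 6 below without overlap in place of 7 and 10. Of the 17 genes without overlap, 0 turned to the opposite side under a scaling, and 3 above (Aif1, Csf1r and Cd38) and 6 below (Ctss, Lyz2, C1qb, C1qc, Ccl2 and Cxcl10) held under all 4 scalings. With normexp 0 genes were lower under the male label, 1 was called under the female label, lower, and 3 lay above without overlap.

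Without a filter on dim probes the medians were -0.14 and -0.092 and 17 genes lay below. In this setting the 7 genes detected on no array entered at the lowest detectable level of each array. That level was 3.75% and 3.99% in Sham and 3.40% and 2.68% in TiO2-H. These genes therefore lay below by construction, whatever their signals. With a filter on all 4 arrays 0 genes were lower under the male label, since Cxcl10 was then left out. At 2-fold 1 gene was called under the female label, lower.

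In limma 9 genes had an unadjusted p under 0.05, but 4 without a filter, 4 with sex as labelled as a term and 4 with the TiO2-H labels exchanged. With each array left out in turn, where the lone array is assumed to vary like the others, the count was 2 to 4, the genes above without overlap were 8 to 12 and those below 11 to 15, and the median was -0.06 to 0.02. The adjusted p passed 0.05 for 0 genes in each of these fits. The cause of these shifts was not tested beyond the construction of each alternative. Signals near background limit the cytokine genes most.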
